A study of Mus musculus with 9 samples.

Results

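Retinal ganglion cells (RGCs), the projection neurons of the retina, are commonly recognised by a short set of transcripts found in nearly all of their types. Rbpms, Rbpms2, Thy1, Slc17a6, Sncb and Sncg were followed here across 3 levels of intraocular pressure (IOP), as 6 of the 23997 gene symbols listed in every library. The 6 genes were chosen by name, on the basis of earlier results from the same libraries, so their differences between groups are descriptions. Calls from the fit over all genes are counted for them without p-values and support nothing by themselves. All 6 passed the filter on low values, a mean of at least 0.5 FPKM over the 9 libraries.

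RGCs came from female and male C57BL/6J mice, 8 weeks old by the sample labels, whose eyes had received saline (Control) or microbeads in the anterior chamber 2 weeks earlier. Eyes with microbeads were divided by their rise in pressure into Mild IOP and Moderate IOP, and no allele or drug distinguished the groups. The RNA of each group was pooled over animals and split into 3 technical replicates. Every SD and SE below therefore covers differences between 3 libraries of 1 pool and not differences between mice. The same limit holds for every call and false discovery rate. The cells were isolated by immunopanning, with negative selection first and an antibody to Thy1 as the last, positive step. Thy1 is therefore both a measured transcript and the antigen on which the cells were captured. Expression was given as FPKM, mapped fragments divided by transcript length and by library size, which is comparable between genes because it is corrected for length. In bulk RNA of this kind, more cells of a type and more RNA per cell cannot be told apart.

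Rbpms and Rbpms2 encode related RNA-binding proteins, and within the retina both are used as markers of RGCs as a class. Thy1 is a small GPI-anchored surface glycoprotein of the immunoglobulin superfamily. Slc17a6 encodes VGLUT2, the transporter that loads glutamate into the synaptic vesicles of RGC axons. Sncb and Sncg encode beta- and gamma-synuclein, small soluble neuronal proteins, and Sncg is a long-standing RGC marker. Loss of such transcripts is widely used as a sign of RGC injury. The comparisons address how these transcripts stand in RGCs after pressure elevations of different size.

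Each gene was represented by 1 locus on mouse build mm10, all protein coding. Rbpms lay on the minus strand of chromosome 8 (33782644 to 33929863) and Rbpms2 on the plus strand of chromosome 9 (65630582 to 65660518). Thy1 was on the plus strand of chromosome 9 (44043384 to 44048579) and Slc17a6 on the plus strand of chromosome 7 (51621830 to 51671126). The synucleins were on minus strands, Sncb on chromosome 13 (54758860 to 54766440) and Sncg on chromosome 14 (34370274 to 34374669). The longest identical run between the longest transcripts of Rbpms and Rbpms2 was 20 nt, and that between Sncb and Sncg was 16 nt, both far below the read length of 100 nt. No 100-nt stretch of Rbpms, Thy1, Slc17a6, Sncb or Sncg recurred in a transcript of another gene of the GENCODE M21 annotation. Rbpms2 was the exception, with 9.50% of its 100-nt stretches also present in Gm3470, so part of its fragments could have been divided. The antisense gene Gm26632 overlaps the Rbpms locus over 19892 bases, and because the library kit does not keep the strand, fragments of the overlap cannot be told apart.

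Promoter windows, from 250 bases before to 50 bases after an annotated start, were available in the RefSeq table (GRCm38.p6) for Slc17a6, Rbpms2, Sncb and Sncg, and Rbpms and Thy1 had no entry. The windows of the 2 synucleins are shown because the levels of these genes differed between groups to unequal extents, and that of Rbpms2 because its levels did not follow those of its paralog Rbpms. Capitals mark GGGCGG, the core of the GC box, or TGACGT, part of the cAMP response element, on either strand, and copies of GGGCGG may adjoin each other.
Sncg, chr14:34374620-34374919, minus strand: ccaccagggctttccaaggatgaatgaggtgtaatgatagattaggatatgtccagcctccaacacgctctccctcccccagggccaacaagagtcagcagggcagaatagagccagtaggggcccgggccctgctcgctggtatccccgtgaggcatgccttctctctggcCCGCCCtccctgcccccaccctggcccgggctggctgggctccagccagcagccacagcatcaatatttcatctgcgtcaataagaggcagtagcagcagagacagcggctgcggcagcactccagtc
Sncb, chr13:54766546-54766845, minus strand: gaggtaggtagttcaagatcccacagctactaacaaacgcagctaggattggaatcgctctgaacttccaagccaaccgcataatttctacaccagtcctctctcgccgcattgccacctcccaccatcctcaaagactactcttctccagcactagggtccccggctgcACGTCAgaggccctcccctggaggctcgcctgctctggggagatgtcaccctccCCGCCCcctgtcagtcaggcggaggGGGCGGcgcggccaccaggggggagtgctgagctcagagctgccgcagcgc
Rbpms2, chr9:65630332-65630631, plus strand: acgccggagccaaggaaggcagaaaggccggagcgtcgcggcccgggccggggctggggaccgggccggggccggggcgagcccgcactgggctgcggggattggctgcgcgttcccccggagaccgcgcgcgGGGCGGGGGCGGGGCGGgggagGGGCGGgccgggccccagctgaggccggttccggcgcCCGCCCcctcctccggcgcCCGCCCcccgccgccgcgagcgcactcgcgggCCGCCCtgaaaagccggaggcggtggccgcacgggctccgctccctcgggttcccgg
The Sncg and Rbpms2 windows are placed on the same start as the loci measured here, while the RefSeq start of Sncb is 155 bases upstream of the locus in the expression files. The GC content was 61.3% for Sncg and 62.0% for Sncb, against a median of 52.7% over all 32851 windows of the same length. Rbpms2 had 83.3% GC, more than 99.7% of windows. GGGCGG occurred at 1 place in Sncg, 2 in Sncb and 7 in Rbpms2, and 35.7% of all windows held it. TGACGT was found in the Sncb window alone of the 3, and 7.51% of all windows held it. Neither TATAAA, the TATA box, present in 13.6% of all windows, nor ATTAAT, a POU-factor core present in 4.75%, was found in these 3 windows. These are letter matches only.

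The depth derived from the confidence intervals of the FPKM values was 4820000 to 8770000 fragments per library, with 14182 to 14914 genes above 0. This depth is an estimate, lower than the number of reads per sample that the paper gives. All 12 markers of an RGC list were above 1 FPKM in every group. They were not alone: the summed level of 13 amacrine markers, such as the GABA-synthesising enzyme Gad1, was 1840 to 1949 FPKM in Control libraries, above the 1524 to 1614 FPKM of the RGC list, 5 of whose 12 genes are members. Rod markers summed to 635 to 784 FPKM and lens markers to 377 to 454 FPKM in Control. Markers of astrocytes, endothelial cells, pericytes and cones were low in all groups, at no more than 24.4 FPKM summed, and horizontal cell markers reached 35.2 FPKM. Among defining genes, Cldn5 and Cdh5 of endothelial cells, Lhx1 and Gja10 of horizontal cells and Vsx1 of bipolar cells were listed at 0 in every library.

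Sncg was the most abundant member in every library. Its scaled FPKM was 855, 931 and 948 in the Control replicates, 700.1, 507 and 716 under Mild IOP, and 1424, 1357 and 1385 under Moderate IOP. All Mild IOP libraries lay below all Control libraries, and all Moderate IOP libraries lay above them. In Moderate IOP, Sncg stood at rank 30 to 33 among all genes, against 51 to 60 in Control and 59 to 89 in Mild IOP. The Control mean was 911 ± 49.6, that of Mild IOP 641 ± 117 and that of Moderate IOP 1389 ± 34.0 (SD, n = 3). On the log2 scale the difference from Control was −0.52 ± 0.13 (SE) in Mild IOP and 0.61 ± 0.13 in Moderate IOP. Between the IOP groups it was 1.13 ± 0.13, a 2.19-fold higher level in Moderate IOP. The 3 Moderate IOP libraries differed by only 1.05-fold from lowest to highest.

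Sncb, the other synuclein chosen, followed the same order with a smaller spread between groups. Its scaled FPKM was 266, 231 and 236 in Control, 215, 204 and 246 in Mild IOP, and 291, 238 and 350.0 in Moderate IOP. The ranges of all 3 groups overlapped. The Moderate IOP mean of 293 ± 56.1 (SD, n = 3) was 0.25 ± 0.15 (SE) above Control on the log2 scale, and the Mild IOP mean of 221 ± 21.9 was 0.14 ± 0.15 below it (a difference of −0.14). Moderate IOP exceeded Mild IOP by 0.39 ± 0.15. Leaving out Moderate IOP replicate 3 or replicate 2 changed the difference from Mild IOP to 0.25 or 0.53, and the difference from Control to 0.11 or 0.39. The difference from Mild IOP was called only without replicate 2. The Mild IOP difference from Control was −0.22 without Mild IOP replicate 3 and −0.08 without Control replicate 1 or Mild IOP replicate 2.

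Because the differences of the 2 synucleins were unequal, their ratio was compared as well. The ratio of Sncb to Sncg was 0.269 ± 0.036 in Control, 0.351 ± 0.048 under Mild IOP and 0.211 ± 0.039 under Moderate IOP (SD, n = 3). Every Mild IOP library had a higher ratio (0.307 to 0.402) than every Moderate IOP library (0.175 to 0.253), whereas the Control libraries (0.248 to 0.311) overlapped both.

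Rbpms had the largest differences of Moderate IOP among the members and also the poorest agreement between replicates. Its scaled FPKM was 84.9, 110 and 68.8 in Control, 97.7, 66.5 and 66.0 in Mild IOP, and 283, 193 and 110 in Moderate IOP. The lowest Moderate IOP library, replicate 3, was barely above the highest Control library (110.3 against 109.6), while replicate 1 was 2.56-fold higher than replicate 3. The mean was 87.8 ± 20.5 in Control, 76.7 ± 18.1 under Mild IOP and 195 ± 86.2 under Moderate IOP (SD, n = 3). The log2 difference of Moderate IOP was 1.07 ± 0.30 (SE) from Control and 1.26 ± 0.30 from Mild IOP, and that of Mild IOP from Control was −0.19 ± 0.30. Without Moderate IOP replicate 1 the difference from Control was 0.75, and without replicate 3, where it was called, it was 1.43. The Mild IOP difference was −0.02 without Control replicate 2, −0.35 without Control replicate 3 and −0.38 without Mild IOP replicate 1.

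This scatter exceeded the counting error of the libraries. The 95% intervals given with the FPKM of the Moderate IOP replicates were 265 to 300.1, 182 to 204 and 102 to 118, and no pair of them overlapped. The SD in Moderate IOP was 13.6 times that expected from those intervals. Each Rbpms value rested on at least 448 fragments. Among 4688 genes with a mean of at least 16 FPKM, 95.4% had a smaller residual SD within groups than the 0.47 of Rbpms. Over all members, 34 of 54 pairs of replicates (63.0%) had intervals that did not overlap, against 42.6% of pairs over the 4688 genes. Rbpms accounted for 8 of its own 9 pairs, and Sncg and Slc17a6 for 4 of 9 each.

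**Figure D1:**
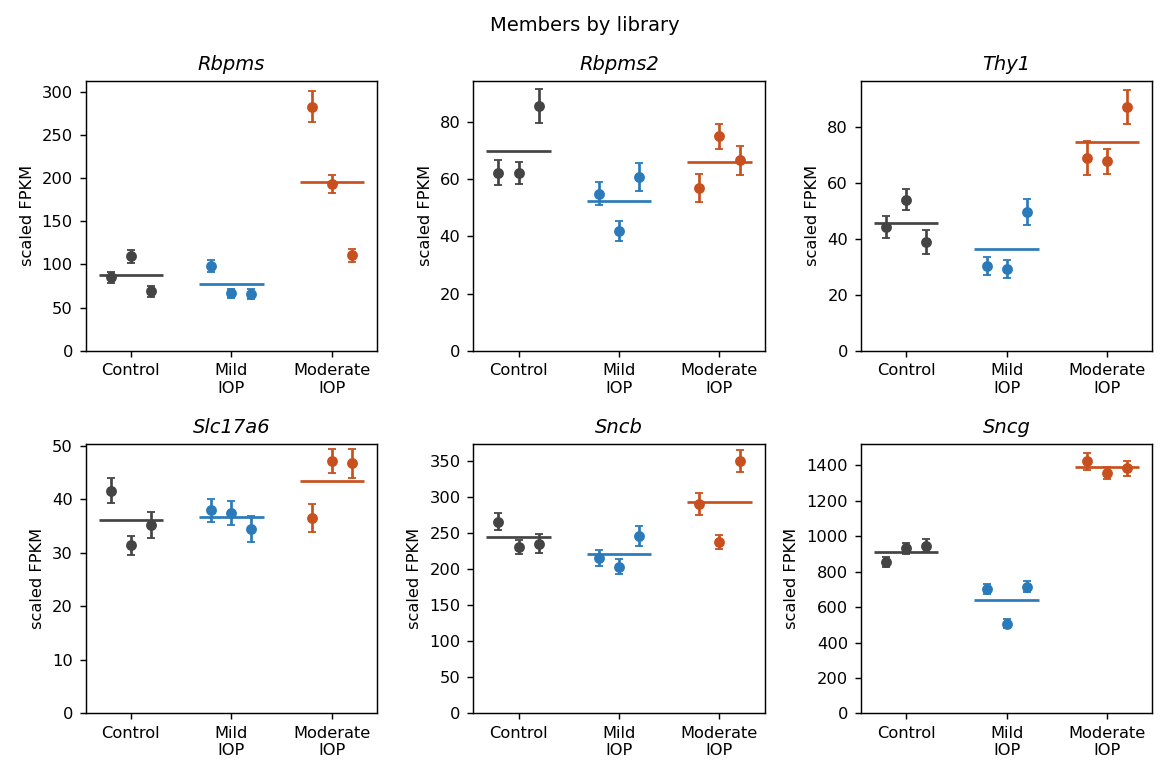
Scaled FPKM (y axis, linear from 0, a separate scale for each gene) of the 6 members in the 3 Control, 3 Mild IOP and 3 Moderate IOP libraries, in the order of replicates 1 to 3. Points are libraries, bars are the 95% intervals of the deposited FPKM and horizontal lines are group means; Sncg separates the groups completely, from 507 to 716 in Mild IOP up to 1357 to 1424 in Moderate IOP, while Rbpms spreads from 110 to 283 within Moderate IOP.

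Rbpms2 did not share the pattern of its paralog. Its scaled FPKM was 62.4, 62.2 and 85.6 in Control, 54.9, 41.9 and 60.8 in Mild IOP, and 56.9, 75.1 and 66.6 in Moderate IOP. All Mild IOP libraries lay below all Control libraries, and Moderate IOP overlapped both groups. The log2 difference from Control was −0.41 ± 0.18 (SE) in Mild IOP and −0.07 ± 0.18 under Moderate IOP. The latter changed sign when Control replicate 3 (0.08) or Moderate IOP replicate 1 (0.03) was left out. The ratio of Rbpms to Rbpms2 was 1.31 ± 0.48 in Control, 1.48 ± 0.36 under Mild IOP and 3.06 ± 1.71 under Moderate IOP (SD, n = 3). The Moderate IOP libraries, at 4.96, 2.57 and 1.66, ran from above all others into the Control range of 0.804 to 1.76.

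**Figure D2:**
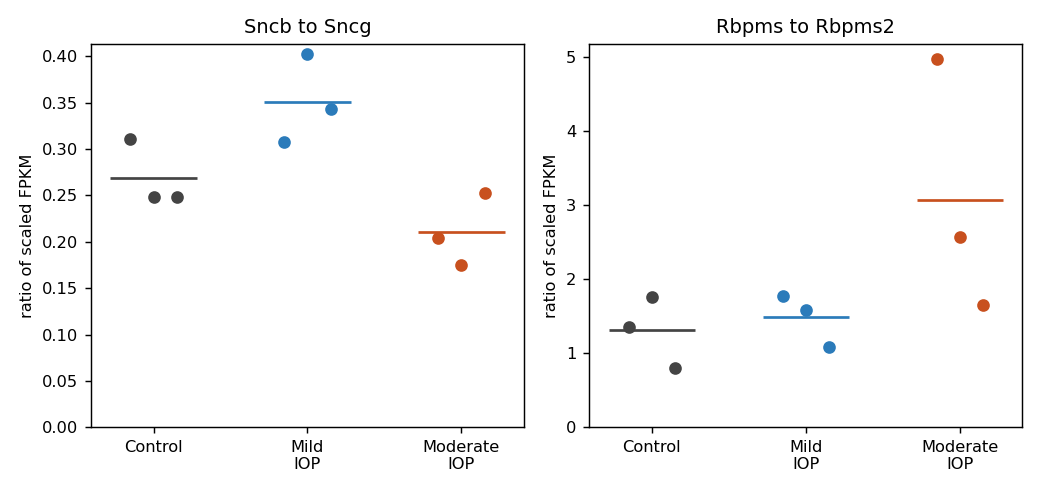
Ratio of scaled FPKM (y axis, linear from 0) of Sncb to Sncg and of Rbpms to Rbpms2 in each of the 9 libraries; points are libraries and lines are group means. The Sncb to Sncg ratio is 0.307 to 0.402 in Mild IOP and 0.175 to 0.253 in Moderate IOP, and the Rbpms to Rbpms2 ratio of the Moderate IOP libraries ranges from 1.66 to 4.96.

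Thy1, the panning antigen, was among the less abundant members. Its scaled FPKM was 44.3, 54.1 and 38.9 in Control, 30.4, 29.2 and 49.7 in Mild IOP, and 69.0, 67.8 and 87.2 in Moderate IOP. The Moderate IOP libraries were all above the other 6, and Mild IOP overlapped Control through its replicate 3. The means were 45.8 ± 7.70, 36.4 ± 11.4 and 74.7 ± 10.8 in the same order (SD, n = 3). Moderate IOP was higher by 0.70 ± 0.21 (SE) than Control and by 1.05 ± 0.21 than Mild IOP on the log2 scale, and Mild IOP differed from Control by −0.35 ± 0.21. Leaving out Mild IOP replicate 3 changed the last value to −0.59, and leaving out replicate 2 changed it to −0.22.

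Slc17a6 had the smallest difference of the members between the IOP groups and between Mild IOP and Control. The vesicular glutamate transporter had a scaled FPKM of 41.6, 31.4 and 35.2 in Control, 38.0, 37.4 and 34.5 in Mild IOP, and 36.6, 47.2 and 46.7 in Moderate IOP. The 3 ranges overlapped. The log2 differences were 0.03 ± 0.15 (SE) for Mild IOP and 0.26 ± 0.15 for Moderate IOP against Control, and 0.23 ± 0.15 between the IOP groups. The first of these was −0.06 without Control replicate 2 and 0.13 without Control replicate 1. The Moderate IOP difference from Control rested on replicates 2 and 3, since replicate 1 was within the Control range.

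In order of mean level in Control, Sncg (911 FPKM) was followed by Sncb (244), Rbpms (87.8), Rbpms2 (70.1), Thy1 (45.8) and Slc17a6 (36.1). The neighbours Rbpms and Rbpms2 did not differ beyond their spread in Control, nor did Thy1 and Slc17a6, while Sncg lay above all other members in every group. Sncb lay above the remaining 4 in Control and Mild IOP, and in Moderate IOP it overlapped Rbpms, whose replicate 1 (283) was above Sncb replicate 2 (238). In Moderate IOP the order below Sncb was Rbpms (195), Thy1 (74.7), Rbpms2 (66.2) and Slc17a6 (43.5), with Thy1 and Rbpms2 overlapping.

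Across the 13043 genes fitted, 0 of the 6 members were called at a false discovery rate (FDR, limma with Benjamini-Hochberg adjustment) below 0.1 in Mild IOP against Control, where 0.399% of all genes were called. For that comparison 1324 of all genes had an unadjusted p below 0.05 and 52 passed the adjustment. In Moderate IOP against Control, 1 of 6 members was called, Sncg, as higher, where 0.951% of all genes were called higher and 1.84% in either direction. In Moderate IOP against Mild IOP, 3 of 6 were called higher, Rbpms, Thy1 and Sncg, where 7.03% of all genes were called higher and 10.2% in either direction. Because the genes had been chosen with these contrasts in view, nothing is read from these counts. Rbpms2 and Sncg were the members with all Mild IOP libraries below all Control libraries, as were 9.13% of all genes. Rbpms, Thy1 and Sncg were above in all Moderate IOP libraries, as were 9.95% of all genes against Control and 14.5% against Mild IOP.

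The median log2 difference over the 6 members was −0.27 in Mild IOP against Control, 0.44 in Moderate IOP against Control and 0.72 between the IOP groups. Over all genes the medians were 0.01, 0.00 and −0.02. Against Control, 5 of the 6 differences were negative for Mild IOP and 5 were positive for Moderate IOP. The 3 comparisons share their libraries in pairs and are not independent of each other. The call of Sncg against Control was lost when Control replicate 1, Control replicate 2 or any Moderate IOP replicate was left out, although its difference stayed between 0.56 and 0.64 in every fit that left out a library. The call of Rbpms between the IOP groups was lost without Mild IOP replicate 2 (1.17) or Moderate IOP replicate 2 (1.22).

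**Figure D3:**
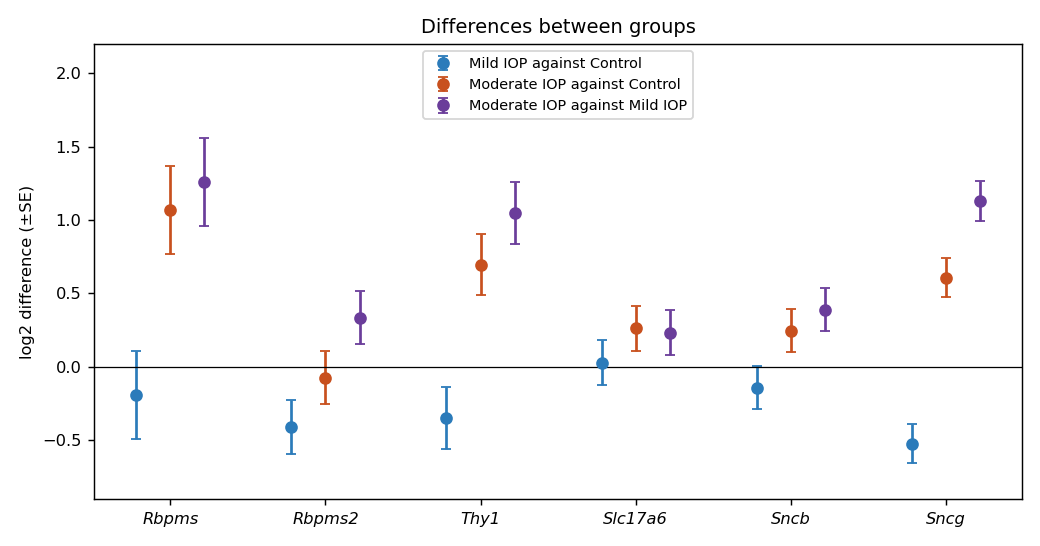
Log2 difference (y axis, ± SE) of each member for Mild IOP against Control, Moderate IOP against Control and Moderate IOP against Mild IOP, from 1 limma fit over all 9 libraries. Rbpms, Thy1 and Sncg stand between 0.61 and 1.07 above Control in Moderate IOP, whereas Rbpms2, Slc17a6 and Sncb lie between −0.07 and 0.26.

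Marker sums of other cell types also differed between the groups. The summed level of the amacrine list was 1426 to 1610 FPKM in Moderate IOP, below the 1840 to 1949 of Control and the 1892 to 2106 of Mild IOP. Gad1 was 549 ± 23.6 FPKM in Control, 587 ± 27.5 under Mild IOP and 421 ± 21.5 under Moderate IOP (SD, n = 3). Rod markers summed to 407 to 514 FPKM in Mild IOP and 470 to 518 in Moderate IOP, below Control. The lens list fell from 377 to 454 FPKM in Control to 13.6 to 15.6 in Mild IOP and 16.5 to 34.5 in Moderate IOP, with 10 and 9 of its 11 tested genes called in either direction against Control. Müller glia markers summed to 961 to 1014 FPKM in Moderate IOP against 849 to 895 in Control and 863 to 913 in Mild IOP. The 2 highest genes of that list moved in opposite directions. Moderate IOP had the lowest mean of Dkk3, 423 ± 28.8 FPKM, below 509 ± 41.2 (Mild IOP) and 485 ± 16.1 (Control). It had the highest mean of Clu, 372 ± 10.8 FPKM, above 261 ± 18.5 (Mild IOP) and 273 ± 38.3 (Control; SD, n = 3). Bipolar markers ran from 113 to 201 FPKM in Control, 102 to 183 in Mild IOP and 192 to 244 in Moderate IOP, which overlapped Control. Microglial markers ran from 62.5 to 64.4, 52.9 to 73.0 and 74.9 to 80.4 in the same order. Of 8 bipolar and 9 microglial markers tested, 0 were called in Moderate IOP against Control, and 1 of each list against Mild IOP. Of the tested amacrine markers, 2 of 12 were called in either direction in Moderate IOP against Control and 4 against Mild IOP. For Müller glia the counts in either direction were 2 and 3 of 8, where 1.84% and 10.2% of all genes were called. Rod markers had 3 of 11 called in Moderate IOP against Control and 2 of 11 in Mild IOP against Control, where 0.399% of all genes were called. The part of these differences in the levels of the 6 members was not tested.

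To set the members against other genes enriched in RGCs, a list of 25 such genes was examined, which like the members was assembled with earlier results known. Of the 24 tested, 5 were called higher than Control in Moderate IOP (20.8%, against 0.951% of all genes called higher) and 11 were called higher than Mild IOP (45.8%, against 7.03% of all genes). None was lower in either comparison, and 0 were called in Mild IOP against Control. The median log2 difference of the list was 0.45 in Moderate IOP against Control and 0.50 between the IOP groups, and −0.11 in Mild IOP against Control.

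Against Control, the largest called differences were those of the RGC subtype transcription factor Isl2, the neuropeptide Cartpt and the neurofilament light chain Nefl. Isl2 rose from 6.12 ± 1.45 FPKM in Control to 15.2 ± 2.79 in Moderate IOP (log2 difference 1.19 ± 0.21 SE, limma FDR 0.031). Cartpt, expressed by direction-selective RGCs, rose from 408 ± 6.74 to 885 ± 37.2 FPKM (1.11 ± 0.15, limma FDR 0.0058). Nefl rose from 343 ± 9.41 to 537 ± 18.2 FPKM (0.65 ± 0.09, limma FDR 0.011). Uchl1, an abundant neuronal deubiquitinase, and Stmn2, a microtubule regulator of growing axons, were the other 2 genes called, at 0.58 and 0.64.

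Between the IOP groups the largest called difference of the list was again that of Cartpt, from 310 ± 66.6 FPKM in Mild IOP to 885 ± 37.2 in Moderate IOP (1.54 ± 0.15, limma FDR 0.0016). The calcium-binding protein Pvalb followed, at 20.2 ± 11.5 and 53.4 ± 9.08 FPKM (1.49 ± 0.34, limma FDR 0.031). Pou4f1, a POU-domain transcription factor of many RGC types, was 15.6 ± 2.73 and 30.3 ± 5.29 FPKM (0.92 ± 0.18, limma FDR 0.017). Its relatives Pou4f2 and Pou4f3 were not called, with differences of 0.07 and 0.56. The nicotinic receptor subunit Chrna6 differed by 0.12 between Moderate IOP and Control.

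**Figure D4:**
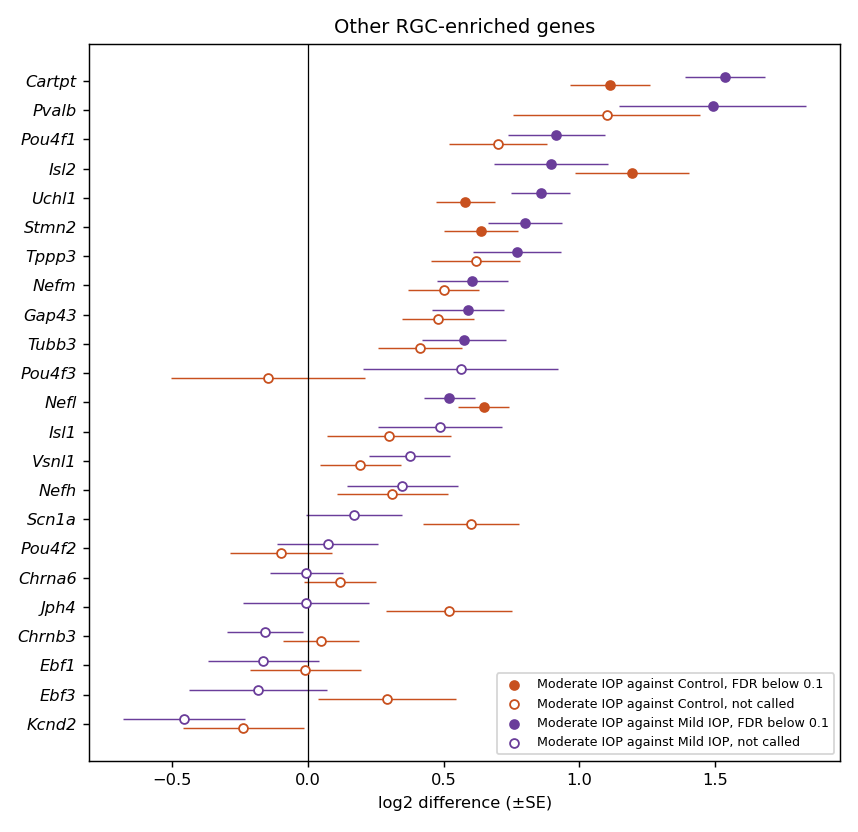
Log2 difference (x axis, ± SE) of 23 of the 24 tested genes of the wider RGC list for Moderate IOP against Control and Moderate IOP against Mild IOP, ordered by the latter; filled points have a limma FDR below 0.1 over all genes. Cartpt (1.54 and 1.11), Pvalb and Isl2 lie farthest to the right, and the 5 and 11 called genes are all on the side of a higher level in Moderate IOP.

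The functional relatives of the members were examined in the same way. Of 5 tested genes of the synuclein family and its partners, 2 were called higher in Moderate IOP than in Mild IOP (40.0%, against 7.03% of all genes called higher). Among them Park7, a redox-sensitive chaperone, had 461 ± 0.192 FPKM in Moderate IOP and 314 ± 65.4 in Mild IOP (log2 difference 0.57 ± 0.15, limma FDR 0.052). The 6 tested vesicular transporters other than Slc17a6 gave 0 calls in each comparison. The highest of them was Slc32a1, the transporter for GABA and glycine, with 10.7 ± 3.85 FPKM in Control, and Slc17a7, the other main vesicular glutamate transporter of neurons, had 9.85 FPKM. Slc17a6 was the most abundant vesicular transporter measured, with a mean of 36.1 FPKM in Control.

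Of 22 neuronal RNA-binding proteins, to which Rbpms and Rbpms2 are functionally akin, 0 were called against Control in either IOP group. Between the IOP groups 3 were called higher in Moderate IOP and 1 lower (18.2% in all, against 10.2% of all genes, median 0.05). The splicing regulator Rbfox2 was 3.96 ± 0.408 FPKM in Mild IOP and 9.04 ± 2.78 in Moderate IOP (0.98 ± 0.26, limma FDR 0.052), and the neuronal ELAV protein Elavl3 was 11.3 ± 2.09 and 21.9 ± 2.01 (0.91 ± 0.19, limma FDR 0.020). Rbfox3, the antigen NeuN, differed by 0.41 ± 0.12 (limma FDR 0.066), and Celf1 was lower by −0.59 ± 0.15 (limma FDR 0.043). Celf4, the most abundant of the list, was 242 FPKM in Control and 242 in Moderate IOP.

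Of 25 tested surface proteins with an immunoglobulin fold or a GPI anchor, the class of Thy1, 1 was called against Control in Moderate IOP (4.0%, against 1.84% of all genes). This was Nrn1, the GPI-anchored neuritin, which rose from 40.5 ± 2.78 to 68.2 ± 3.16 FPKM (0.74 ± 0.14, limma FDR 0.043). Between the IOP groups Nrn1 (0.68, limma FDR 0.021) and its relative Nrn1l (1.20, limma FDR 0.078) were higher and the adhesion molecule Ncam1 was lower (−0.44, limma FDR 0.082) in Moderate IOP. The median of this list between the IOP groups was −0.18, on the other side of 0 from Thy1. Prnp, the prion protein gene and the most abundant of the list, had a mean of 298 FPKM in Control and 266 in Moderate IOP.

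The profiles of the members over the 9 libraries were compared as a description, with n = 9 libraries of 3 pools that share their group differences. Pearson's r was highest between Thy1 and Sncg (0.891) and between Thy1 and Sncb (0.824), and it was 0.774 between Rbpms and Sncg. Rbpms and Rbpms2 were related by only 0.117. Among 4687 other genes of at least 16 FPKM, the 3 most like Sncg were Ndufb3, a subunit of respiratory complex I, the ribosomal protein gene Rpl13, and Stmn1, a microtubule regulator, with r of 0.991, 0.991 and 0.985. Ndufb3 was 371 FPKM in Control, 259 under Mild IOP and 597 under Moderate IOP. The profile of Sncg was common, as 262 genes had an r above 0.9 to it, whereas Slc17a6 had 6 such genes and Sncb had 7.

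The genes most like Thy1 were Sh3bgrl3 (0.965), the ribosomal protein gene Rps24 (0.963) and 1500011B03Rik (0.958), out of 55 above 0.9. For Rbpms they were Mgst3, a microsomal glutathione transferase (0.953), Wdr83os (0.945) and the deubiquitinase Otub1 (0.945). Rbpms2 was closest to Fam98b (0.973), Ccdc106 (0.964) and BC029214 (0.951). Slc17a6 was closest to Lgi3 (0.944), Ddx24 (0.939) and Vamp2 (0.933), the last a synaptic vesicle SNARE protein. Sncb was closest to Tmbim6 (0.944), Med31 (0.943) and Cinp (0.929). No gene stood in more than 1 of these sets of 3.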

How the data were processed

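The authors aligned paired reads of 100 nt to mm10 and estimated expression with cufflinks, and the deposited unit is FPKM, 1 value per locus and library, with its 95% confidence interval. The labels name FastQC, Trimmomatic, TopHat2, Cufflinks and Cuffdiff. Loci were summed per symbol, each library was divided by its median-of-ratios factor (0.983 to 1.058), and log2(FPKM + 1) of the 13043 genes with a mean of at least 0.5 was fitted by group over all 9 libraries with limma 3.58.1 in R 4.3.3, with a variance trend. Folds are on this scale, which understates changes of low genes. Calls required a Benjamini-Hochberg FDR below 0.1. Fragments were derived from the interval widths, and this number is too low for abundant genes. The fit was also run on simulated data with independent noise for each gene and library. That noise did not include differences between pools, so the run does not bear on them. Intervals describe the estimate within 1 library and do not cover differences between libraries. No batch is named.

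Members and lists were chosen with earlier results of these data known. Named were the members, the 3 genes most like each (Pearson's r, 9 libraries, mean of at least 16 FPKM), and per list the most abundant gene, up to 3 called genes per direction and comparison, and the 2 highest cell markers. Uchl1, Stmn2, Pou4f2, Pou4f3, Chrna6 and Slc17a7 were named after their values were seen. Some single genes that the rule names are not reported here. Protein sequences were not used here. Figures were drawn with matplotlib 3.10.9 in Python 3.11.15.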

Additional observations from a re-analysis of the deposited data

Results flagged for a closer look

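Sncg lay on opposite sides of Control in the 2 IOP groups. All 3 Mild IOP libraries lay below all 3 Control libraries, and all 3 Moderate IOP libraries lay above them, with a log2 difference of 1.13 ± 0.13 (SE) between the IOP groups. Against Control, Sncg was not called in Mild IOP under any alternative run, and its call in Moderate IOP was lost under several. The difference between the 2 effects is the contrast of the IOP groups itself, in which Sncg was called, and because the gene was chosen with that contrast in view the call is given as a description. The summed amacrine markers were 1892 to 2106 FPKM in Mild IOP and 1426 to 1610 in Moderate IOP, and their part in the difference was not tested.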

How the results depend on the processing

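Of 288 recomputed member differences, 285 moved by less than the residual SD of the gene and no called difference changed sign. The count of 0 members called in Mild IOP against Control held under every alternative run, with a median over members of −0.37 to −0.16. In Moderate IOP against Control the count of 1 became 0 with equal summed FPKM, with no filter on low values and with no variance trend, and ranged from 0 to 1 when 1 library was left out (without Moderate IOP replicate 3 the call was of Rbpms). Between the IOP groups the count was 3 under every alternative but 1, being 2 without Mild IOP replicate 2, and without Moderate IOP replicate 2 it held Sncb in place of Rbpms. Scaling to equal summed FPKM shifted the median of all genes by 0.10, −0.11 and −0.20 in the 3 comparisons. Under it the median over members between the IOP groups was 0.48, that is 0.69 above the median of all genes, against 0.73 in the main fit. The single gene Slc17a6 then differed by −0.0041 between the IOP groups. Over the alternatives, calls over all genes ranged from 11 to 175, from 61 to 296 and from 518 to 1910 in the 3 comparisons. The cause was not tested.

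Over all genes fitted, same-numbered libraries did not deviate together (correlations of −0.01 to 0.04, 0 of 9 pairs over 0.1). Such correlations cannot show whether single genes share a replicate effect. For Rbpms, replicate 3 was the lowest library in Control (68.8 FPKM), Mild IOP (66.0) and Moderate IOP (110), and the cause was not tested. In Mild IOP, replicate 2 was almost level with it (66.5), with overlapping intervals. With a replicate block, the count in Moderate IOP against Control was 1 and named Rbpms, whose SE was 0.22 in place of 0.30, and not Sncg. All-gene calls were then 25, 135 and 1120 in place of 52, 240 and 1324. Each member had 1 locus, so its highest locus equalled its sum. Depth was derived, and 3 technical replicates of 1 pool limit every SE.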
